A study of Mus musculus with 6 samples.

Results

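The intervals described here are the accessible stretches of chromatin that lay farthest from genes in mouse embryonic fibroblasts without Ezh2. They were chosen as the rows of the deposited interval list on chromosomes 1 to 19 whose nearest edge was more than 50 kb from the body of every protein-coding gene of the RefSeq annotation of GRCm38 (mm10). This rule found 1473 of the 21624 autosomal intervals (6.81%), out of 21835 in the list. The rule used position and no signal value. Because it measures from the nearest edge, a wide interval near the limit is less easily kept, and by the midpoint 1509 intervals would pass.

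The study profiled open chromatin by ATAC-seq, a method that tags exposed DNA with adapters carried by a transposase, in 6 samples of a single fibroblast line, line A or C2, that had been immortalized with c-myc. The 3 groups of 2 replicates were wild-type cells, Ezh2 -/- cells, and Ezh2 -/- cells given Ezh2 back by the retrovirus pMSCV-Ezh2. The list analysed here belongs to the Ezh2 -/- group. It holds 1 total signal and 1 maximum signal for each called region and no value per replicate, so there is no replicate error, every comparison below is a description, and what is due to the loss of Ezh2 cannot be told apart from what the line shares with its wild-type parent. Sequencing depth is unknown.

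As a check of the labelled cell type, an interval within 1 kb of a gene end was present at Col1a1, Col1a2, Col3a1, Fn1, Vim and Pdgfrb, all active in fibroblasts, and absent at Pdgfra, Thy1, Postn, Dcn and Lum. Of 70 fibroblast, matrix and mesenchymal genes 46 (65.7%) had such an interval, against 11 of 51 markers of other cell types (21.6%) and 49.7% of all protein-coding genes.

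Most mammalian genes lie close together, but some are separated by wide stretches without coding genes, called gene deserts. Deserts beside developmental transcription factors are known to hold enhancers, elements that bind transcription factors and act on a promoter over long distances, and such genes are classical targets of Polycomb. Ezh2 is the methyltransferase of the Polycomb complex that marks histone H3 at repressed genes.

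Distant intervals are often taken for enhancers, yet some of them hold the start of a long non-coding RNA (lncRNA). The promoter windows of 5 such starts are printed here. They lie wholly inside intervals that are among the highest or belong to the loci described further on. The sequences are RefSeq's, from GRCm38.p6 (mm10), each 300 bp long, from 250 bases before to 50 bases after the start, 5′ to 3′ on the gene's strand. Gm26901 is at chr1:7398047-7398346 on the minus strand, Gm14321 at chr2:167777241-167777540 on the plus strand, Gm32287 at chr2:167777878-167778177 on the minus strand, Dleu2 at chr14:61682324-61682623 on the minus strand and Morrbid at chr2:128429302-128429601 on the minus strand. Capitals mark every match on either strand to the GC box (GGGCGG or CCGCCC), the cyclic AMP response element (TGACGTCA) and the AP-1 motif (TGANTCA).
Gm26901: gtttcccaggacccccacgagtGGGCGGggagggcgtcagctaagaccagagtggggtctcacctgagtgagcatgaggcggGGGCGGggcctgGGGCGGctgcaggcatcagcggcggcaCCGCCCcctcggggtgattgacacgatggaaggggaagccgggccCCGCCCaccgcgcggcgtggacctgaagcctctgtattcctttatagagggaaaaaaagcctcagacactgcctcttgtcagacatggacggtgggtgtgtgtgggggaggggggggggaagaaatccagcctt
Gm14321: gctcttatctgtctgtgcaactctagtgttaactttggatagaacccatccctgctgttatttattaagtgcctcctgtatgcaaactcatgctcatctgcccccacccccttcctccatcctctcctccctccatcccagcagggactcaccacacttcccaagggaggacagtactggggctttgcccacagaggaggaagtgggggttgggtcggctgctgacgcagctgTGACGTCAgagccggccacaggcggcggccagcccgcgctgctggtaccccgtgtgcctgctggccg
Gm32287: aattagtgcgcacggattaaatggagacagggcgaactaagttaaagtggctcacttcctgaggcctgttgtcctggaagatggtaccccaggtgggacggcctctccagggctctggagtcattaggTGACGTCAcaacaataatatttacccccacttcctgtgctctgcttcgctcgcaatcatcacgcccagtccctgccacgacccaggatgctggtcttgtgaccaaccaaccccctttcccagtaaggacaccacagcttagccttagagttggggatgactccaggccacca
Dleu2: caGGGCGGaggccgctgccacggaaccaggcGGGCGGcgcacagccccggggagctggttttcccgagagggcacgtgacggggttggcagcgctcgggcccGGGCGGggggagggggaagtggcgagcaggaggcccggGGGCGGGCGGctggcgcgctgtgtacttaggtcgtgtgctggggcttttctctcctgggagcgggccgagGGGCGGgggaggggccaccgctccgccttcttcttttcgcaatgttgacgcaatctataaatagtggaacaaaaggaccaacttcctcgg
Morrbid: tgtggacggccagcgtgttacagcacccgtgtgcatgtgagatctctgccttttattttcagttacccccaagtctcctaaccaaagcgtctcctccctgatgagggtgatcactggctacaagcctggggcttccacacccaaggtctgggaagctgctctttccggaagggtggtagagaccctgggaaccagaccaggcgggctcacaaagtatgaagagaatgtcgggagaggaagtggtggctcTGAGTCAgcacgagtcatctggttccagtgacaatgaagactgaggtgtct
The Gm26901 window held 5 GC boxes and the Dleu2 window 6. Gm14321 and Gm32287 lie on opposite strands and run towards each other from starts 436 bp apart, and each window held 1 cyclic AMP response element. The Morrbid window held 1 AP-1 motif. Windows of Lncpint and Lexis1, described further on, also lie wholly inside distant intervals and are not printed. They held no match to any of these motifs, so the printed windows are not typical in this respect. Among all 31396 promoter windows listed by RefSeq, 36.0% held a GC box, 7.84% an AP-1 motif and 1.83% a cyclic AMP response element, and a match describes letters, not binding.

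The distant intervals were slightly narrower than the others and carried less signal. Their median width was 2230 bp (quartiles 1750 and 2930), against 2474 bp (1868 and 3347) for the other 20151 autosomal intervals. Their 1372 called regions had a median total signal of 22788 in the authors' unit (quartiles 18245.5 and 31985), against 29882.5 (20825 and 46623.5) elsewhere. The median maximum signal, the height at the highest point of a region, was 21 (16 and 28) against 27 (18 and 40). The quartile ranges overlap for all 3 measures.

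The contrast lay mainly with gene ends. Intervals at gene ends, where promoters lie, had a median maximum of 36 and a median total of 36359.5. Intervals inside genes away from the ends had a median maximum of 20 and a median total of 24221, and intergenic intervals within 50 kb of a gene had 21 and 24198. In median height the distant intervals were thus close to the other intervals that were not at gene ends. Each median covers only regions that passed the calling threshold, so it says nothing of weaker regions left out of the list. Tall and broad intervals were few outside gene ends. A maximum of 60 or more was reached by 12 of the 1372 regions (0.875%), against 964 (5.46%) of the other regions, of which 868 were at gene ends. Inside genes the share was 1.01% and in intergenic regions within 50 kb 1.30%, so that the distant intervals were close to both. Among the 1473 distant intervals 16 were 7000 bp or wider, against 729 of the other 20151. Of the latter, 543 were at gene ends, 128 inside genes and 58 in intergenic regions within 50 kb. These classes hold 9572, 6541 and 4038 intervals. Totals of the distant regions ran from 15320 to 187702, with a lower quartile of 18245.5 near the low end, and their maxima from 9 to 67.

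**Figure D1:**
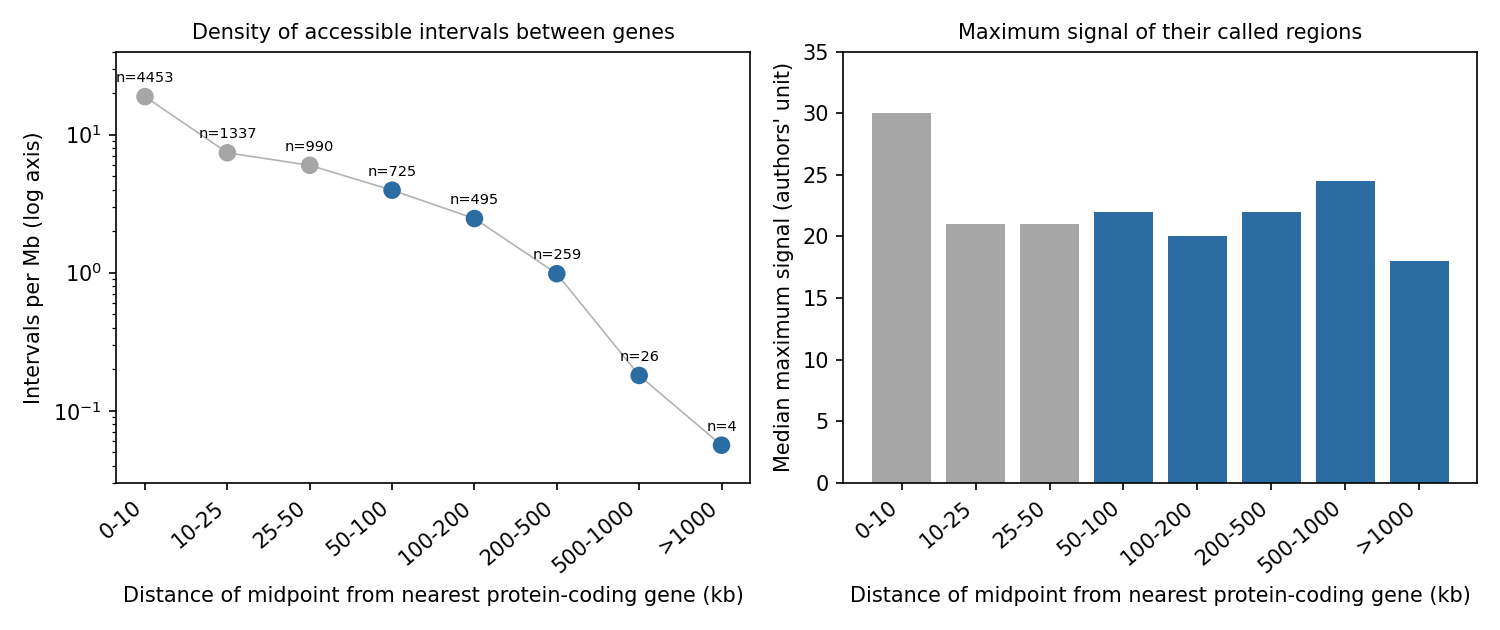
Left, intervals per Mb between genes on a log axis, by the distance of the midpoint from the nearest protein-coding gene in kb, with the number of intervals; right, the median maximum signal of their called regions in the authors' unit, with blue for distances over 50 kb. Density falls from 18.8 per Mb within 10 kb to 0.180 at 500 to 1000 kb, while the median maximum is 20 to 24.5 in the classes from 10 kb to 1000 kb.

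With distance from genes the number of intervals fell steeply, while beyond 10 kb the median height of the called regions showed no steady trend. Regions below the calling threshold are not in the list. Whether accessibility as such keeps its strength with distance was therefore not tested. The median distance of the distant intervals to the nearest gene was 103.65 kb (quartiles 69.0 and 175 kb). Of them, 773 (52.5%) were over 100 kb away, 283 over 200 kb and 30 over 500 kb. By the distance of the midpoint, intervals fell from 18.8 per Mb within 10 kb of a gene to 5.99 at 25 to 50 kb, 3.96 at 50 to 100 kb, 2.47 at 100 to 200 kb, 0.983 at 200 to 500 kb and 0.180 at 500 to 1000 kb. The median maximum was 30 within 10 kb, 21 at 10 to 25 kb and at 25 to 50 kb, then 22, 20, 22 and 24.5 in the last 4 of these classes, and 18 for the 4 intervals over 1000 kb. The median total went from 25917.5 at 10 to 25 kb to 21225 at 200 to 500 kb, and the median width from 2330 to 2171 bp. At 500 to 1000 kb they were 21900.5 and 1975 bp, and over 1000 kb 24245 and 3262 bp. The class at 500 to 1000 kb holds 26 intervals. The limit of 50 kb cuts through a continuous range. The members nearest to it were in the gaps Katnal1-Hmgb1 (50.061 kb, maximum 45), Metrnl-Ptchd3 (50.073 kb, 12) and Gpat3-Nkx6-1 (50.088 kb, 14). Just outside it were an interval between Otos and Gpc1 (49.997 kb, 24) and a pair between Trabd2b and Foxd2 (49.921 kb, 44, and 49.873 kb, 32).

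The 4 intervals over 1 Mb from any coding gene were in 4 deserts. The farthest lay 1324.7 kb from Zeb2, the gene of a zinc finger homeobox repressor of epithelial genes, in the 3697 kb desert up to the activin receptor gene Acvr2a, and had a maximum of 34. The others lay between Tenm3 and Aga (1203.49 kb from Aga, maximum 16), between Celf2 and Gata3 (1180.55 kb from Gata3, maximum 16) and between Nmbr and Cited2 (1167.77 kb from Cited2, maximum 20). Gata3 and Cited2 encode a developmental transcription factor and a transcriptional coregulator.

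The highest maximum among all distant intervals was 67, reached by an interval between St3gal1 and Zfat and by another between Jun and Fggy. The Jun desert interval, 3074 bp wide at chr4:95316918-95319991, lay 264.695 kb from Jun, an AP-1 subunit gene, and 237.488 kb from Fggy. The next were 65 between Ctnna3 and Reep3 and between Sult1c1 and Slc5a7, and 64 between Grxcr1 and Kctd8 and between Pcmtd1 and Sntg1. The last of these is the interval with the Gm26901 start, 222.62 kb from Pcmtd1, and its highest base was 136 bp from that start. Of the 10 highest regions, 3 held lncRNA promoters in any of their pieces: this one, the region of Gm14321 and Gm32287 between Cebpb and Ptpn1 (maximum 63), and that of BC002059 between Rgmb and Gm51425 (maximum 61).

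The highest totals marked broad domains cut into several intervals. The largest, 187702, belonged to a called region of 4 intervals between Cebpb, the gene of a bZIP transcription factor, and Ptpn1, a tyrosine phosphatase gene. It was followed by 169588 between Cstad and 1700001O22Rik, 156475 beside Pmepa1, a gene induced by TGF-beta, and 156351 between Spring1 and Med13l, a Mediator subunit gene. The Spring1-Med13l interval was also the widest, at 12610 bp, and held the promoter of the lncRNA Gm30746. All pieces of a region repeat its total and maximum, which applies to 196 of the intervals.

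Distant intervals were found most often in gaps whose bordering genes both had an interval within 1 kb of a gene end. Either end of the gene counts, also the one that faces away from the gap. A gap between coding genes must exceed 100 kb to hold one. Of 2495 gaps wide enough, 634 (25.4%) held at least 1, with 1.71 intervals per Mb over the 863 Mb that lie beyond 50 kb from genes. Where both bordering genes had an interval at a gene end, 209 of 487 gaps (42.9%) held a distant interval, at 4.82 per Mb. With such an interval at only 1 bordering gene the share was 324 of 1086 (29.8%), at 1.76 per Mb, and with none it was 101 of 922 (11%), at 0.550 per Mb. Over all 2495 gaps the share rose with width, from 14.8% of gaps of 100 to 200 kb to 39.4% of gaps of 1000 to 2000 kb, while the number per Mb fell from 5.81 to 0.854. In the 78 gaps over 2000 kb it was 32.1%, at 0.296 per Mb.

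Some of the widest deserts held no distant interval. The widest of these was the 4542 kb desert between the protocadherin genes Pcdh20 and Pcdh9, followed by Celf4-Pik3c3 (4511 kb), Olfm4-Pcdh17 (4420 kb) and Cntnap5b-Cdh20 (4278 kb). Of the 12 widest empty ones, Stim2-Pcdh7 was the 1 gap with any interval at all, and that interval lay within 50 kb of a gene.

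Distant intervals were concentrated in few gaps. While 353 gaps held 1 and 210 held 2 to 4, the 71 gaps with 5 or more held 564 (38.3%) of all distant intervals. The gap with the most was that between Mn1, which encodes a transcriptional coregulator, and Cryba4, a lens crystallin gene, with 25 intervals from 21 called regions in 789 kb and maxima up to 44. The next, between Sox9 and Slc39a11, held 23 from 16 regions in 457 kb. Sox9, which specifies cartilage and other lineages, is flanked by deserts on both sides, and the 1056 kb on its other side, up to Gm11677, held 11 more, so that 34 intervals bordered this gene. Their maxima ran up to 37 on the Slc39a11 side and 34 on the Gm11677 side, below the 48 of the interval nearest to Sox9 on the latter side.

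The other gaps with 12 or more differed in width. Narrow and densely filled were Septin9-Tnrc6c (16 in 291 kb), Cebpb-Ptpn1 (15 in 240 kb, or 107 per Mb of distant territory), Gm30733-Prex1 (15 in 280 kb), Haao-Zfp36l2 (14 in 335 kb) and Spring1-Med13l (13 in 297 kb). Prex1 encodes an exchange factor for Rac, and Zfp36l2 an RNA-binding protein that promotes mRNA decay. Wide and filled at a single end were Ctnna3-Reep3, where 12 of 14 intervals lay 86.4 to 206 kb from Reep3 in a desert of 2006 kb, and Slc8a1-Pkdcc, where all 13 lay 65.5 to 213 kb from Pkdcc in a desert of 1477 kb. Pkdcc encodes a secreted kinase of skeletal development, Reep3 a protein of the endoplasmic reticulum. Dhx35-Gm826 held 12, spread from 54.4 to 1364 kb from Dhx35 in a gap of 1453 kb. Pax1-Foxa2 and Thap1-Zfp703 held 11 each.

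**Figure D2:**
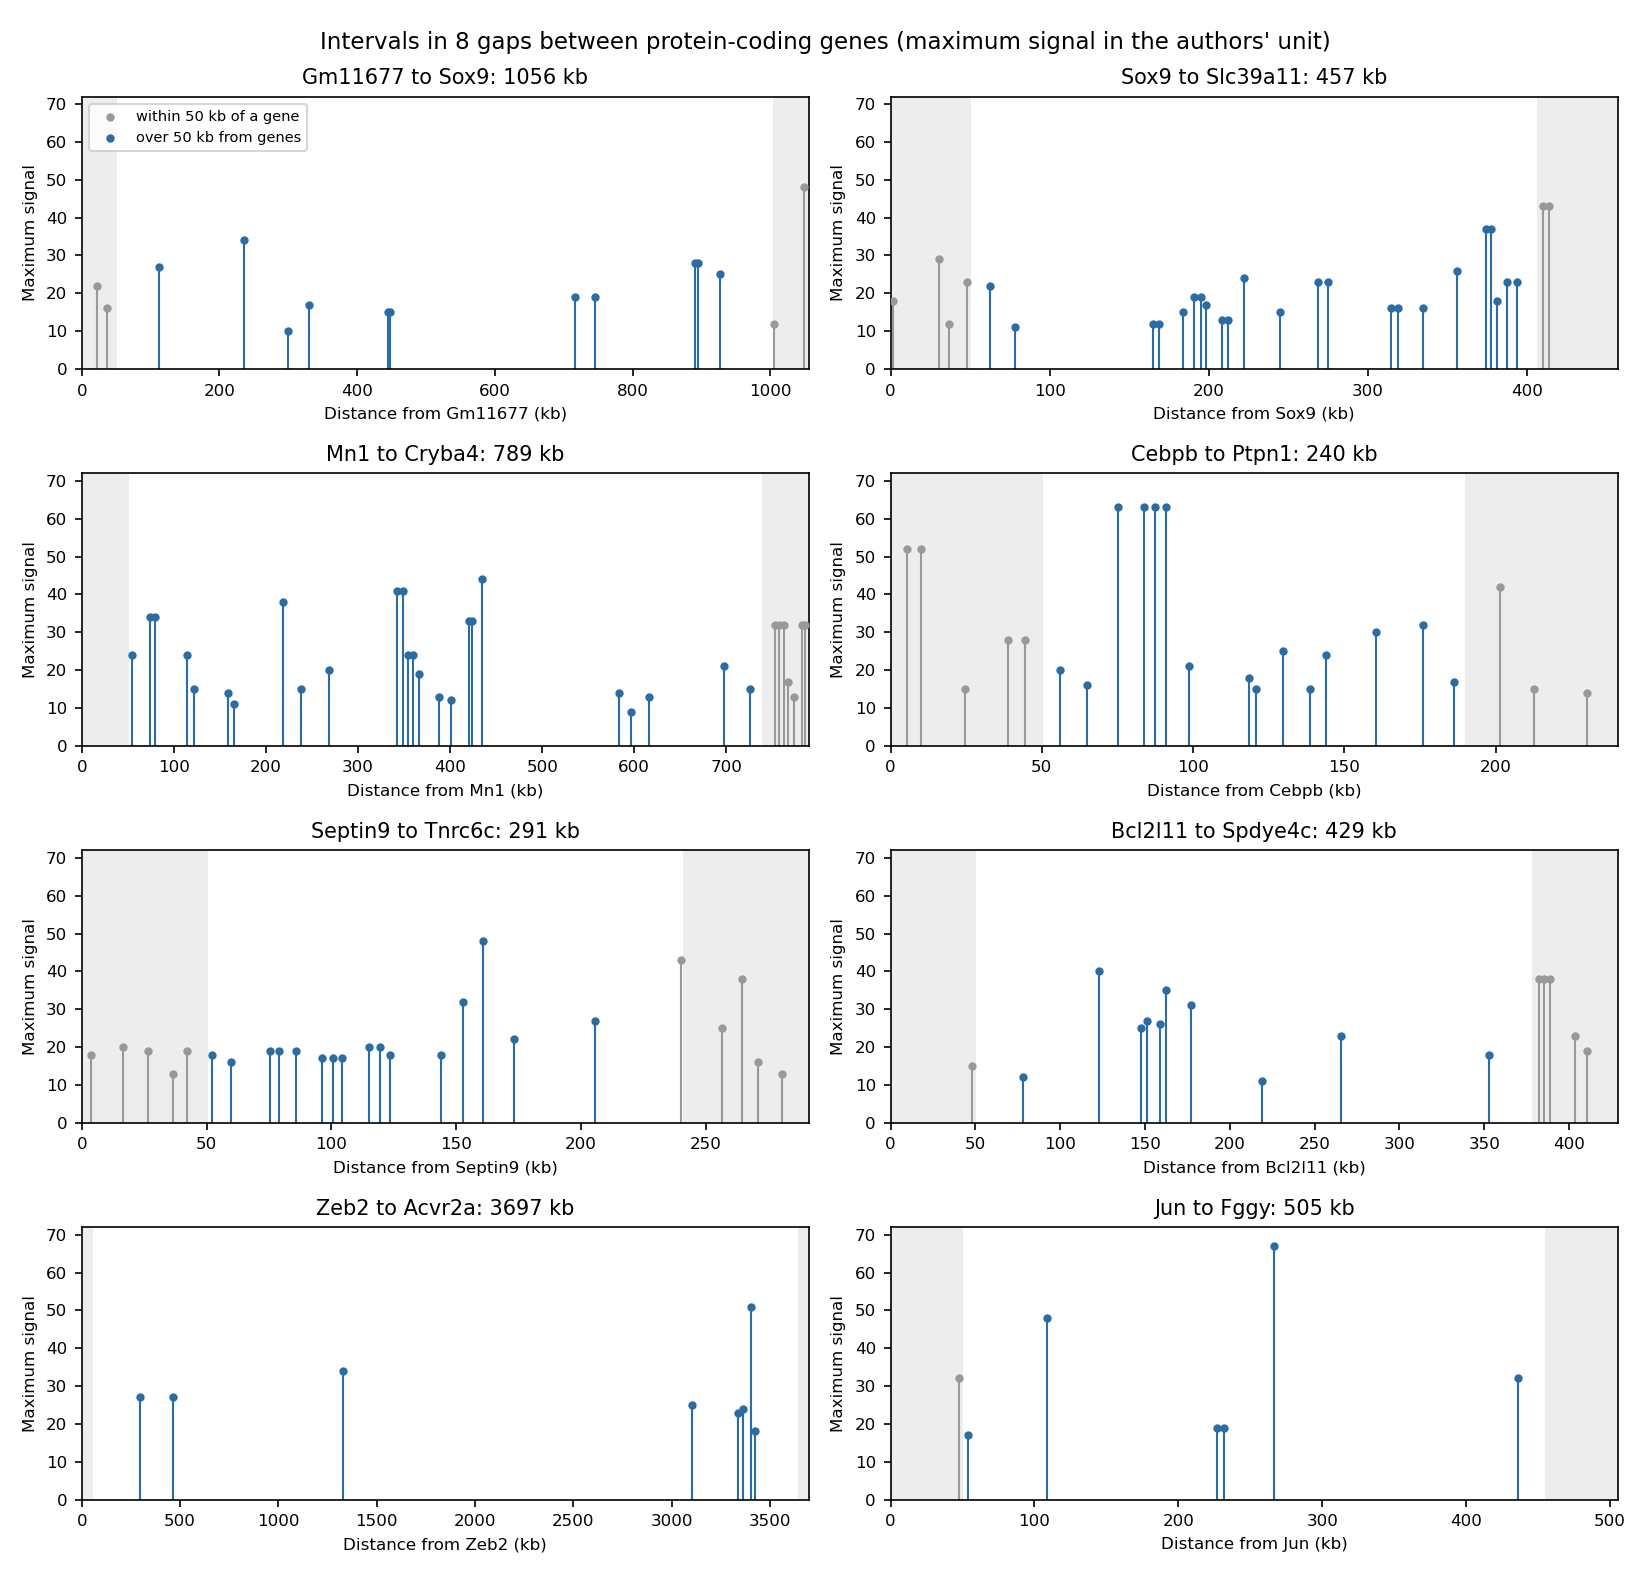
Maximum signal (authors' unit) of every interval in 8 gaps between coding genes, against the distance from the gene on the left in kb; each stem is an interval, blue where it is over 50 kb from both genes and grey in the shaded zones within 50 kb. Stems of equal height side by side can be pieces of 1 called region, as with the 4 at 63 between Cebpb and Ptpn1.

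Neighbouring distant intervals were often close. Of the 1120 that shared a gap with another, the median distance to the nearest was 13694.5 bp, and 490 had a neighbour within 10 kb. Taking as a cluster any run of at least 3 in which each lay within 25 kb of the next, 390 (26.5%, exact Clopper-Pearson 95% interval 24.2 to 28.8, counting error only) were in 87 clusters, of median span 30.4 kb. Intervals of a run enter a cluster together, so they are not independent, which the 95% interval leaves out. With the pieces of each called region joined, the share was 19.9%. Regions in clusters had a median total of 27334 and a median maximum of 21, against 21529 and 22 for the 779 intervals with no neighbour within 25 kb. Pieces of a split region count as neighbours, so a split region reaches the 3 members of a cluster more easily. Over regions of 1 interval the medians were 23947 and 20 in clusters (259 regions) and 21516.5 and 22 outside (778 regions).

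Of the 22 clusters of 5 or more, the largest held 15 intervals each. The Septin9-Tnrc6c cluster spanned 127 kb with 36.9% of it inside intervals, and the Cebpb-Ptpn1 cluster spanned 134 kb with 38.7% inside. Of the 4 pieces of its highest region, the one at chr2:167776331-167779159 holds the starts of Gm14321 and Gm32287 printed above, and the highest bases of the region lay between these starts, 272 bp from the first and 161 bp from the second. The clusters of 8 to 12 are given by the gaps that hold them: Sox9-Slc39a11 (12 and 9), Gm30733-Prex1 (11), Slc8a1-Pkdcc, Mn1-Cryba4 and Haao-Zfp36l2 (10 each), Spring1-Med13l (9) and Ctnna3-Reep3 (8). Those of 5 to 7 were in Cstad-1700001O22Rik (7), in Cacna1e-Ier5, Bcl2l11-Spdye4c and Pmepa1-1700021F07Rik (6 each), and in 1500009L16Rik-Nuak1, Kcng1-Nfatc2, Wnt7b-Ppara, Trabd2b-Foxd2, 1600014C23Rik-Vegfa, Chd2-Fam174b, Eea1-Btg1 and Klf14-Mkln1 (5 each). Ier5 is an immediate early gene, Vegfa encodes an angiogenic factor and Bcl2l11 the pro-apoptotic protein Bim.

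Gene lists were compared by how many of their members border a wide enough gap and how many of those gaps held a distant interval. Of all 20665 autosomal protein-coding genes, 4103 (19.9%) bordered a wide enough gap, and of these 1196 (29.1%) bordered a distant interval. Developmental regulators, 397 genes in 5 lists, bordered wide gaps more often, with 224 (56.4%), and 102 of the 224 (45.5%, exact Clopper-Pearson 95% interval 38.9 to 52.3) bordered a distant interval. An interval is counted for both genes of its gap, of which either can be the nearer. The range covers counting only, and genes that share a gap are not independent. Wider gaps hold more, so the same was read within gap widths: of gaps with a developmental gene at a border 23.6% held a distant interval at 100 to 200 kb, 40.2% at 200 to 500 kb, 47.3% at 500 to 1000 kb and 48.5% over 1000 kb. For the other gaps the shares were 14.0%, 30.2%, 34.0% and 35.6%. Over all widths they were 109 of 288 (37.8%) and 525 of 2207 (23.8%), with 2.58 and 1.58 intervals per Mb, and 2.31 per Mb for the former without the Sox9 gaps. Signal was similar, with median maxima of 22 for the 292 intervals beside developmental genes and 21 for the rest.

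**Figure D3:**
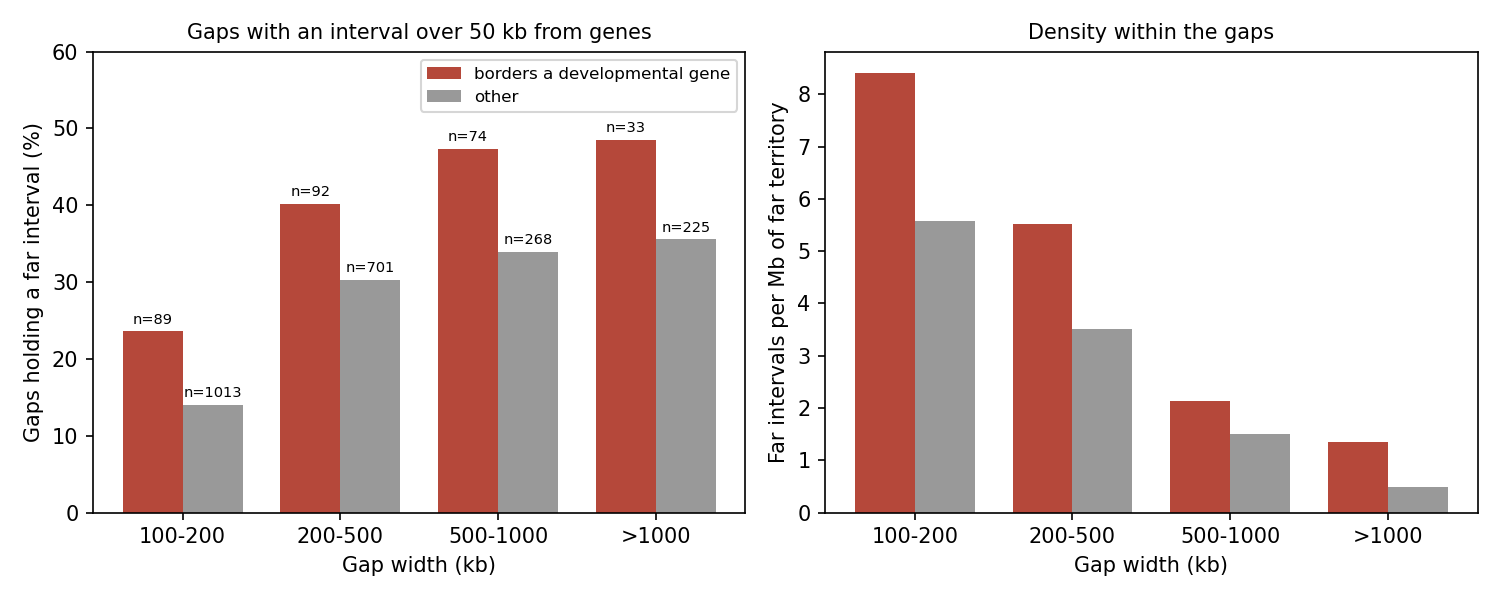
Left, the percentage of gaps that hold a distant (far) interval by gap width in kb, with the number of gaps above each bar; right, distant intervals per Mb of the territory over 50 kb from genes. Gaps with a developmental gene at a border (red) stand above the other gaps (grey) in each width class, as with 48.5% against 35.6% over 1000 kb; there are no replicates and no error bars.

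Among homeobox regulators 32 of 63 (50.8%) bordered a distant interval, with 8 beside Zeb2, 7 beside the midbrain and limb regulator En1 and 4 each beside Hlx and Irx1. All 4 beside Irx1 lay nearer to Adamts16, and of the others 3 each were nearest to Zeb2, En1 and Hlx. Alx1, Barx1 and Barx2 had none. The Hox genes are packed in clusters, and only 3 of 39 bordered a wide gap. Hoxc13 and Hoxc4 had 1 distant interval each. Of the Sox, forkhead, T-box, Pax and Gata factors 24 of 47 (51.1%) had at least 1, led by Sox9 with 34 (16 of them nearest to it), the endoderm factor Foxa2 with 17, Pax1, a regulator of the vertebral column, with 13, and Foxd2 with 9. The nearer gene was Foxa2 for 13, Pax1 for 4 and Foxd2 for 4. Eomes, Foxc1 and Foxf2 had none. The 11 intervals between Pax1 and Foxa2 count for both genes. Of these, 9 lay nearer to Foxa2, while an interval at a gene end was present at Pax1 and absent at Foxa2.

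Of the basic helix-loop-helix, zinc finger and other developmental factors 26 of 70 (37.1%) had a distant interval, with 11 beside Zfp703, 10 beside Klf4 and 8 each beside Gli2, which acts in Hedgehog signalling, and Hes1, a Notch target. Of these, 8 were nearest to Zfp703, 4 to Klf4, 4 to Gli2 and 3 to Hes1. The neurogenic factor Atoh1 had none, nor had Bcl11a with a gap of 2214 kb. Of the developmental signalling genes 18 of 41 (43.9%) did, with 9 beside the Notch ligand gene Jag1 and 5 each beside Fgfr2, Inhbb and Wnt7b, while Bmp5, Bmp7 and Fgf10 had none. The named gene was the nearer for 4 of those beside Jag1, 1 beside Fgfr2, 3 beside Inhbb and 2 beside Wnt7b. Many of the genes beside distant intervals had no interval of their own at either end. Among the 102 developmental genes 55 (53.9%) had one, against 35 of the 122 (28.7%) that bordered empty gaps. For all genes these shares were 57.9% and 36.7%.

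The shares were also high for growth response and fibroblast genes, on fewer genes. Of the Myc network, AP-1 and growth response genes 17 of 23 (73.9%, 51.6 to 89.8) bordered a distant interval, with 6 each beside Ier5 and Jun and 3 each beside Dusp6, Il6 and Klf6. The named gene was the nearer for 6 beside Ier5, 4 beside Jun, 2 beside Klf6, 1 beside Dusp6 and none beside Il6. Areg, Dusp4 and Ier3 had none. Myc itself, the gene used to immortalize the line, had 3, all towards Gsdmc, with maxima of 15, 23 and 31. Of the fibroblast matrix and mesenchymal genes 26 of 46 (56.5%, 41.1 to 71.1) did, with 7 beside Thbs1, which encodes a matrix glycoprotein, 5 each beside the chemokine gene Cxcl12 and the fibronectin gene Fn1, 4 beside Ncam1 and 3 beside Col3a1. All of those beside Thbs1 and Ncam1 had that gene as the nearer. The same held for 3 of those beside Cxcl12 and 1 each of those beside Fn1 and Col3a1.

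Markers of other cell types were not lower by this count: 9 of 15 (60%, 32.3 to 83.7) bordered a distant interval. The leukocyte gene Ptprc, which had no interval at its ends, had 5, of which 4 were nearest to it. Neuronal adhesion and synapse genes stood at 18 of 76 (23.7%, 14.7 to 34.8) although their widest gaps had a median of 1851 kb. Slit2 and Flrt2 had 4 each, of which 1 each had that gene as the nearer, and Alcam had none in 2771 kb. Olfactory receptor genes stood at 2 of 25 (8%) and vomeronasal receptor genes at 0 of 73, for which the interval reaches 4.93%. All these intervals are exact Clopper-Pearson 95% intervals of counting error.

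**Figure D4:**
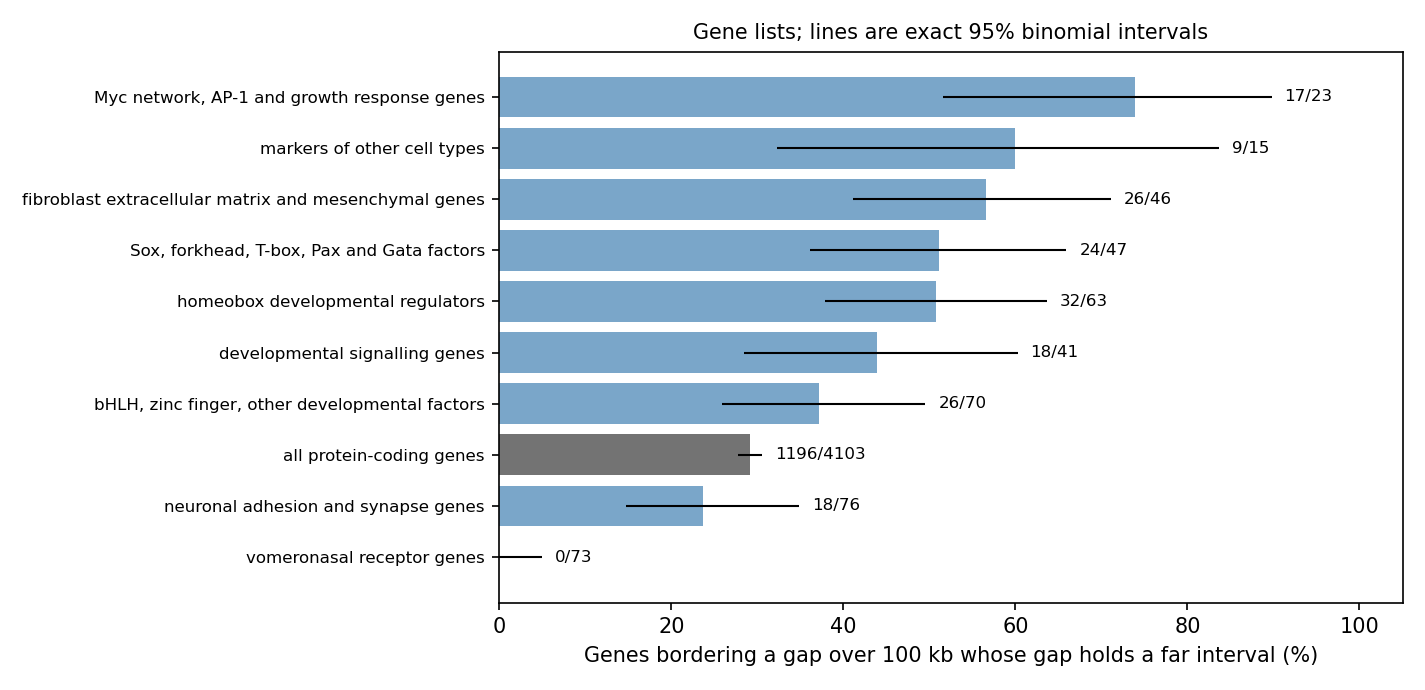
Bars give the percentage of the genes bordering a gap over 100 kb whose gap holds a distant (far) interval, with the counts beside them and black lines for exact 95% binomial intervals of counting error. The Myc, AP-1 and growth response list stands at 73.9%, all protein-coding genes (dark bar) at 29.1% and vomeronasal receptor genes at 0 of 73.

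Many distant intervals lay over annotated non-coding genes. Of the 1473, 481 (32.7%) overlapped a non-coding gene and 460 (31.2%) a lncRNA gene. By midpoint, 397 (27.0%) were inside lncRNA genes, which cover 98.6 of the 863 Mb of distant territory (11.4%). A lncRNA promoter window was touched by 110 intervals (7.47%) and wholly held by 95. Those 110 had a median maximum of 28 and a median total of 28213 per region, against 21 and 22584 for the others. Conversely, 129 of the 3269 lncRNA promoter windows in distant territory (3.95%) were touched.

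The lncRNA promoters inside distant intervals were richer in G and C than those without, but far from the composition of coding promoters. The 111 windows had a median GC content of 53.3% and a median observed to expected CpG ratio of 0.294, against 45.3% and 0.199 for the 3140 distant windows without an interval and 62.7% and 0.804 for the 9351 coding windows with one. A ratio of 0.6 or more was found in 14.4%, 3.63% and 79.5% of the 3 sets. A GC box was held by 25.2%, 6.18% and 69.6%, an AP-1 motif by 16.2%, 10.7% and 4.21%, and a cyclic AMP response element by 2.70%, 0.478% and 3.41%. The 2.70% is 3 of the 111 windows, among them those of Gm14321 and Gm32287 in the same interval. The 111 windows belong to 99 genes. Among the 3 sets the GC box was thus most frequent in the coding windows and the AP-1 motif least frequent there. Over all 11311 lncRNA windows, near genes or not, the median GC content was 48.3% and the median CpG ratio 0.246. A ratio of 0.6 or more was found in 14.1% of them, close to the 14.4% inside distant intervals, and a GC box in 16.3%. Over all 20085 coding windows the ratio reached 0.6 in 48.9%.

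Several distant intervals lay over lncRNA genes with names of their own. Morrbid, a lncRNA gene beside Bcl2l11 known to repress it in myeloid cells, had several distant intervals. That of 4650 bp with a maximum of 23 holds the printed start, its highest bases 1167 bp away. Another, of 2725 bp with a maximum of 31, touches another of its promoter windows. Dleu2, which hosts a pair of microRNA genes, had an interval of 3664 bp with a maximum of 38, whose region of maximum covers the printed start. Lncpint, a p53-regulated lncRNA, also had several. The highest of these in total signal, of 5381 bp with a maximum of 22, holds a start 310 bp from its highest bases. Lexis1, a lncRNA next to the cholesterol transporter gene Abca1, had one of 2930 bp with a maximum of 48, whose highest bases lay 851 bp from the start. Junos, antisense to Jun, had one of 4426 bp with a maximum of 48 and another of 1861 bp with a maximum of 17. Neither touched any of its listed promoter windows. Banf2os had 4 intervals from 3 called regions, with maxima of 35 (a region of 2 pieces), 33 and 18. No RNA was measured here, so whether these starts are transcribed in the line was not tested.

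Distant intervals were spread unevenly over the autosomes, and autosomes dense in them tended to be dense in the remaining intervals. Chromosome 2 had the most, 205, at 3.96 per Mb of distant territory, followed by chromosome 5 at 3.03, 11 at 2.78, 10 at 2.76 and 17 at 2.71. The sparsest were chromosome 14 at 0.684, 8 at 0.796 and 18 at 0.883. Chromosomes 2, 5, 10 and 11 together held 574 (39.0%). Of the 97 on chromosome 11, 75 lay beyond 90 Mb, the stretch that holds the Sox9 and Septin9-Tnrc6c gaps. The share of its other intervals there was not counted, so this count does not set distant intervals apart. Chromosome 11 also had the highest density of other intervals, 26.9 per Mb. Over the 19 autosomes the density of distant intervals and that of the other intervals were related with a Pearson r of 0.798 and a Spearman rho of 0.786, a description of points that share a list and its threshold. The part that DNA copy number or mappability has in this was not tested. Many of the fullest gaps named above are on these chromosomes: Cebpb-Ptpn1, Gm30733-Prex1 and Pax1-Foxa2 on 2, Mn1-Cryba4 and Spring1-Med13l on 5, Sox9-Slc39a11 and Septin9-Tnrc6c on 11 and Ctnna3-Reep3 on 10. Without chromosomes 2, 5 and 11 the share in clusters was 19.3%. The comparison of gaps with and without a developmental gene then stood at 35.2% and 22.6%.

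**Figure D5:**
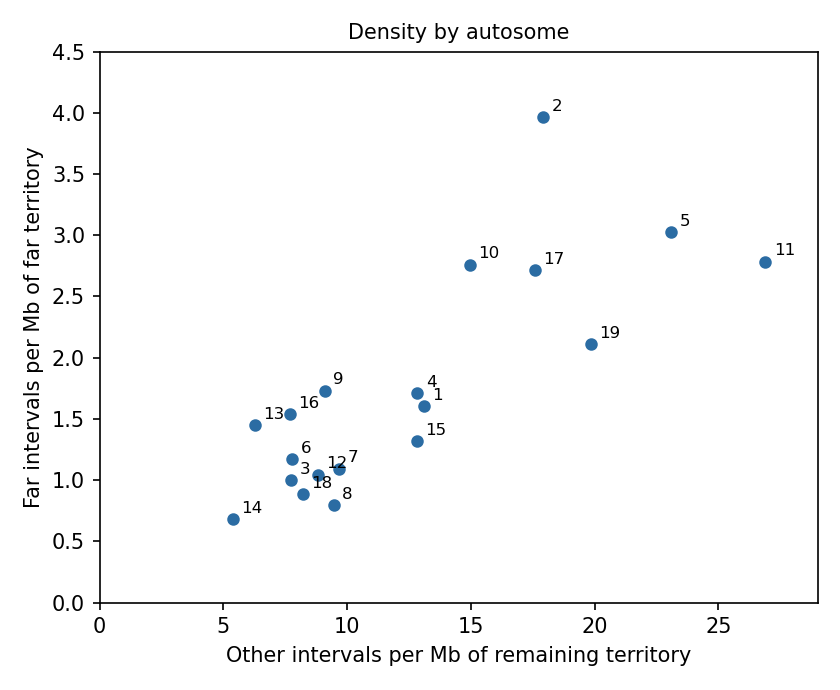
Each point is an autosome, labelled with its number: distant intervals per Mb of territory over 50 kb from genes against other intervals per Mb of the remaining territory. Chromosome 2 is highest on the vertical axis at 3.96 and chromosome 14 lowest at 0.684.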

How the data were processed

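ATAC-seq was done on 50,000 whole cells per sample, per the labels' protocols. The submitters' processing notes name Bowtie2 2.2.9, deepTools, SEACR and the build mm10; the way the 2 replicates were merged, the control, the threshold and the handling of duplicates and transposase shift are not stated there. The deposited list has no header and was read in SEACR's column order. Column 4, the total signal of a called region, was treated as a score in the authors' unit. Column 5, the maximum signal (coverage height), is also deposited in an unstated unit. Pieces of a region repeat both values, so signal medians count each region once and widths count each interval. Depth is unknown. The wild-type and rescue groups are not analysed here.

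Positions were compared in Python 3.11.15 (pandas 2.3.3, numpy 2.4.6, scipy 1.17.1, matplotlib 3.10.9) with the RefSeq gene table of GRCm38.p6, using 20665 autosomal protein-coding genes. A gap is the stretch between merged gene bodies, and distant territory is a gap without 50 kb at each side. Promoter windows and their sequences came from a RefSeq table, which is not complete. Of 645 distinct listed genes 640 matched, 1 by a synonym. Lists were described by counts, without tests, since the list holds no value per replicate. The code gave 0 differences from known distances, gap totals and runs for 1000 simulated intervals.

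The members and lists were chosen with earlier results of these data known. Named are the 10 members highest in total signal, maximum, width and distance (the leading ones in the text), the 12 gaps with the most members, clusters of 5 or more, up to 5 genes per list with the most distant intervals and 3 with none in alphabetical order (some genes this rule names are not reported here), leading named non-coding genes, and 3 members on each side of the limit. Myc, the widest empty gaps, Gm14321, Gm32287, Gm30746 and the fibroblast genes that check the cell type were chosen after values were seen. Alternatives changed the distance limit, the genes counted, the signal threshold, the unit counted and the joining distance.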

Additional observations from a re-analysis of the deposited data

How the results depend on the processing

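Of 34 alternatives 14 left the value within its counting interval (for the number of intervals, within 1.5 times) and 20 moved it; the cause was not tested where the construction does not give it. The number of distant intervals (1473) was 2436 with a limit of 25 kb, 773 with 100 kb, 263 when every annotated gene was counted, and 429 and 142 above the median and the upper quartile of total signal. The median width (2230 bp) was 2185 bp with 100 kb, 2294.5 bp per called region and 2187.5 bp without chromosomes 2, 5 and 11, an alternative chosen after seeing the data. The median total signal (22788) was 23454 with 25 kb, 22151.5 with 100 kb, 20990 with every gene, 23411 per interval and 22119 without those chromosomes, and the median maximum (21) was 20 with every gene. The share in clusters (26.5%) was 15.5% with neighbours within 10 kb, 37.1% within 50 kb, 19.9% per called region and 19.3% without those chromosomes. The share of developmental regulators bordering a distant interval (45.5%, all genes 29.1%) was 28.6% when only the nearer gene was counted (all genes 18.9%) and 16.5% above the median signal (all genes 10.4%), and stayed above that of all genes in the other 4 alternatives. No paired analysis was possible because the list has no value per replicate, and for the same reason no replicate could be left out. Depth sets which weak intervals were called and is unknown.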
